A study of Mus musculus with 9 samples.

Results

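The data described here are the transcriptomes of dopamine (DA) neurons sorted from wild-type mouse midbrain at E15.75 (embryonic day). The 3 libraries titled as Dot1l wild type were taken, of 9 samples that the labels name and 8 with a count file. No genotype was compared. The embryos were Pitx3-Cre/+ and Dot1l-+/+ with a Rosa-lox-stop-lox-Yfp reporter, of the strain C57/Bl6, and so carried a Cre recombinase allele at the Pitx3 locus and a YFP reporter at Rosa26 that Cre switches on. All samples of the study carried both alleles, and the other 2 groups differed in having 1 or 2 floxed copies of Dot1l, which encodes the methyltransferase for lysine 79 of histone H3. Midbrains were dissociated with papain and YFP-positive cells were collected by fluorescence-activated cell sorting. Each library was a pool of 3 or 4 embryos as the study describes its sorted samples, while its methods on RNA isolation speak of 3 pooled samples. YFP marks a cell that has had Cre at any earlier time, so the sort selects the Pitx3 lineage, and 1 of the 2 Pitx3 alleles carried Cre. The transcripts of Cre and YFP were not analysed here.

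Midbrain DA neurons are born in the floor plate of the mesencephalon and send axons to the striatum and cortex. They make DA from tyrosine by way of tyrosine hydroxylase and an aromatic amino acid decarboxylase, load it into vesicles with a monoamine transporter and take it back up with a dedicated plasma membrane transporter. A small group of transcription factors, among them Nr4a2, Pitx3, Lmx1a, Lmx1b, En1, En2, Foxa1 and Foxa2, specifies these cells and keeps them alive, and several of the factors bind to the genes of the DA pathway.

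The libraries held 26296897, 35131708 and 43674673 counts, and 3 counts, the most that an observed 0 allows, were worth 0.114, 0.0854 and 0.0687 counts-per-million (CPM). Such limits cover counting error only. Protein-coding genes took between 95.8% and 96.4% of counts and the mitochondrial chromosome between 1.08% and 1.36%. Levels of a gene between libraries are given in CPM of the library total. Levels between genes are given in transcripts-per-million (TPM), counts per base of exon scaled to the same sum in every library. A gene is called detected where it reached 1 TPM in all 3 libraries, which 11860 of 21697 protein-coding genes did (54.7%). Ranks are over protein-coding genes by mean TPM. The top decile is the first 10% of the detected genes and began at 147 TPM, and the median detected gene was at 27.2 TPM. The libraries are 1 group, so no test between groups was made. An order between 2 genes that holds in all 3 libraries has an exact two-sided sign-flip p of 0.25, the smallest that 3 libraries can give. Such orders are therefore reported as counts of libraries.

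The 3 pools differed in the sex of their embryos. Xist, the RNA that silences an X chromosome in female cells, was at 1150 CPM in library 1, 416 CPM in library 2 and 0 CPM in library 3. The Y-linked gene Ddx3y was at 0.228, 24.9 and 44.1 CPM in the same order. Library 1 thus had almost no Y-linked transcript, library 3 had no Xist count, and library 2 had both.

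The 5 genes that define the cells were among the most abundant transcripts. Th, encoding tyrosine hydroxylase (ENSMUSG00000000214, chr7:142892752-142931128 on GRCm38, minus strand), was at 1032, 952 and 965 CPM. Its mean level was 1551 ± 111 TPM (SD, n = 3) and its rank 32, between 30 and 38 in the single libraries. The highest library exceeded the lowest by 1.08 times. Slc6a3, the plasma membrane DA transporter (ENSMUSG00000021609, chr13:73536747-73578672, plus strand), was at 756, 613 and 601 CPM, 709 ± 103 TPM and rank 108. Nr4a2, the orphan nuclear receptor also known as Nurr1 (ENSMUSG00000026826, chr2:57106830-57124003, minus strand), was at 690, 688 and 735 CPM, 647 ± 48.3 TPM and rank 120. Their order was not fixed, since Slc6a3 was above Nr4a2 in 2 of 3 libraries. Pitx3, the homeodomain factor whose locus drove Cre (ENSMUSG00000025229, chr19:46135685-46148326, minus strand), was at 233, 227 and 186 CPM, 525 ± 52.6 TPM and rank 178. Slc18a2, the vesicular monoamine transporter (ENSMUSG00000025094, chr19:59260896-59296012, plus strand), was at 528, 410 and 460 CPM, 333 ± 51.8 TPM and rank 354. All 5 markers lay in the top decile. Th was above Slc6a3 by 2.20 ± 0.19 times in TPM (SD, n = 3), in 3 of 3 libraries. Dot1l itself was detected at an ordinary level, 104, 84.6 and 93.7 CPM, with 40.3 ± 5.31 TPM and rank 4586.

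The sequences before the transcription starts of Th, Slc6a3 and Pitx3 are shown because Th and Slc6a3 were the marker genes of highest level and the Pitx3 promoter set which cells were labelled. Each is the 250 bases before the RefSeq start on GRCm38.p6, 5′ to 3′ on the strand of the gene. Capitals mark matches, on either strand, to the cAMP response element TGACGTCA, the nuclear receptor element AAAGGTCA (NBRE, the element that Nr4a2 binds as a monomer), the GC box GGGCGG, the E-box CACGTG or the TATA core TATAAA.
Th, chr7:142899996-142900245, minus strand: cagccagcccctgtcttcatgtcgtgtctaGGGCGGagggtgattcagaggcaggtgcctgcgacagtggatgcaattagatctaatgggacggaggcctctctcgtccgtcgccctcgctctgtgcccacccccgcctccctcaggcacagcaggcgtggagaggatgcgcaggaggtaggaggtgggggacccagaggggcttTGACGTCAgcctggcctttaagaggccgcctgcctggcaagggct
Slc6a3, chr13:73536497-73536746, plus strand: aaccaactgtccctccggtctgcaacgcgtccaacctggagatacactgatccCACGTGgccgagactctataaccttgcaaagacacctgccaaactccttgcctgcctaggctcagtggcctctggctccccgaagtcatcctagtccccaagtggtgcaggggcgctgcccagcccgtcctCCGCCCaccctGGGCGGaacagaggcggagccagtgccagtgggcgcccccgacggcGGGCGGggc
Pitx3, chr19:46148326-46148575, minus strand: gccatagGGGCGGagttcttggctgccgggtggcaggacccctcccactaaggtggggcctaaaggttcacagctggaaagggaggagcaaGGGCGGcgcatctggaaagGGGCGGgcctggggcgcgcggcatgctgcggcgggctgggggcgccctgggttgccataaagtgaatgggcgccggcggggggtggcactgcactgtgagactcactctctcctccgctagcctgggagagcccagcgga
The Th sequence held 1 cAMP response element, from 45 to 38 bases before the start, and 1 GC box. Over 32851 promoters of the same length, 1.55% held the cAMP response element. The Slc6a3 sequence held 3 GC boxes and 1 E-box, and the Pitx3 sequence held 3 GC boxes. A GC box was present in 32.7% of the promoters and the E-box in 6.02%. All 5 marker genes were matched, and each of the 5 sequences held at least 1 GC box. None of the 5 held the NBRE letters, which stood in 1.34% of promoters. The TATA core was found only before Nr4a2, against 12.4% of promoters. That match was to the reverse complement, from 164 to 159 bases before the start. The GC content was 64.4% before Th, 66% before Slc6a3, 64% before Slc18a2, 68.8% before Pitx3 and 80% before Nr4a2, with a median of 52.4% over the promoters. The matches within the 3 printed sequences do not overlap each other. They are matches of letters and not measured sites.

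Around Th, the enzymes that make the transmitter stood at graded levels. Ddc, the aromatic amino acid decarboxylase that turns L-DOPA into DA, was at 1148, 1110 and 1060 CPM, 924 ± 44.4 TPM and rank 70. Th exceeded Ddc by 1.68 ± 0.052 times in TPM, in 3 of 3 libraries, but with the longest transcript in place of merged exons Ddc stood above Th, at 1613 against 1485 TPM. The order of these enzymes therefore depends on the length used. Aldh1a1, an aldehyde dehydrogenase found in a subset of DA neurons, was at 1295, 975 and 1081 CPM and 846 ± 144 TPM. The genes for the tetrahydrobiopterin cofactor that Th needs were lower. Gch1, which starts its synthesis, had 47.7 ± 3.48 TPM, Pts and Spr, which finish it, had 12.1 ± 0.57 and 10.7 ± 0.50 TPM, and Qdpr and Pcbd1, which recycle it, had 120 ± 5.28 and 67.4 ± 17.5 TPM. Of the enzymes that break down DA, Aldh2 was at 38.3 ± 3.60 TPM, Maoa at 35.7 ± 4.67 TPM and Maob at 5.64 ± 0.79 TPM. Slc18a1, the vesicular monoamine transporter of endocrine cells, was the single member of the 15 that was not detected, at 0.418, 0 and 0.137 CPM. In all, 14 of 15 genes of this list were detected (93.3%, against 54.7% of all protein-coding genes), and 5 of the 14 were in the top decile, against 10% of all detected genes. None of the 14 had a highest library above 2 times its lowest, which 6.75% of all detected genes had. That share falls with level, to 0.704% from 20 to 100 TPM and 0.106% at 100 TPM or more. Of the 14 genes 5 and 6 lay at these levels.

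**Figure D1:**
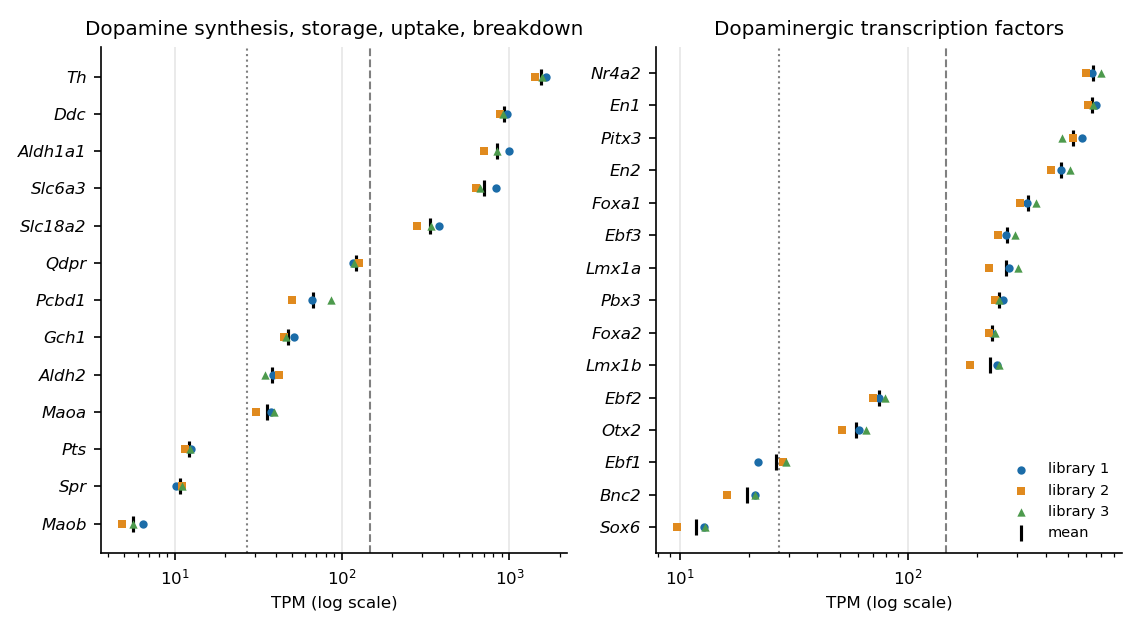
Level in TPM on a log scale of 13 detected genes of DA synthesis, storage, uptake and breakdown (left) and of 15 dopaminergic transcription factors (right), with a symbol for each of the 3 wild-type libraries and a bar at the mean. The dotted line is the median detected gene (27.2 TPM) and the dashed line the start of the top decile (147 TPM); 5 genes on the left and 10 on the right lie to its right.

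All 16 dopaminergic transcription factors were detected, against 54.7% of all protein-coding genes. Of the 16, 11 were in the top decile, against 10% of all detected genes. Nr4a2 and En1, an engrailed homeodomain factor that DA neurons need for survival, headed the list. En1 was at 461, 451 and 440 CPM and 640 ± 26.7 TPM, and neither gene was above the other in all libraries. Pitx3 and En2 were also high, with En2, the paralogue of En1, at 438, 421 and 467 CPM and 466 ± 43.2 TPM. The forkhead factors Foxa1 (334 ± 26.3 TPM) and Foxa2 (232 ± 7.24 TPM), which act from the floor plate onwards, the LIM homeodomain factors Lmx1a (268 ± 39.9 TPM) and Lmx1b (227 ± 35.3 TPM), Ebf3 (270 ± 22.8 TPM) and Pbx3 (251 ± 10.3 TPM) were also among the 11. Foxa1 was at 291, 290 and 313 CPM and Foxa2 at 144, 151 and 148 CPM, so the libraries of each gene lay close together and the genes did not overlap. Below the top decile were Ebf2 (74.4 ± 4.29 TPM), Otx2 (59.2 ± 7.01 TPM), Ebf1 (26.4 ± 3.83 TPM), Bnc2 (19.6 ± 3.05 TPM) and Sox6 (11.8 ± 1.78 TPM). Otx2, a marker of ventral tegmental neurons, exceeded Sox6, a marker of substantia nigra neurons, by 5.04 ± 0.25 times in TPM, in 3 of 3 libraries. In CPM, which is not corrected for length, they were at 66.8 ± 5.19 and 46.8 ± 5.32. None of the 16 had a highest library above 2 times the lowest. At 100 TPM or more, where 11 of the 16 lay, 0.106% of all detected genes had such a spread.

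Of 557 genes of 11 transcription factor families 257 were detected and 25 lay in the top decile. Over all protein-coding genes 54.7% were detected, and 10% of those lay in the top decile. The dopaminergic list took 11 of the first 20 places among the 557. The first place belonged to Jund (379, 521 and 342 CPM, 920 ± 168 TPM) and the second to Sox4 (990, 979 and 1001 CPM, 770 ± 40.8 TPM), a SoxC factor of young neurons. Thra, the thyroid hormone receptor alpha, came after En1 at 634 ± 12.3 TPM. The others in the first 20 were Jun, Atf4, Fos, Arnt2, Sox11 and Srebf2, with 542, 361, 341, 280, 274 and 219 TPM.

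**Figure D2:**
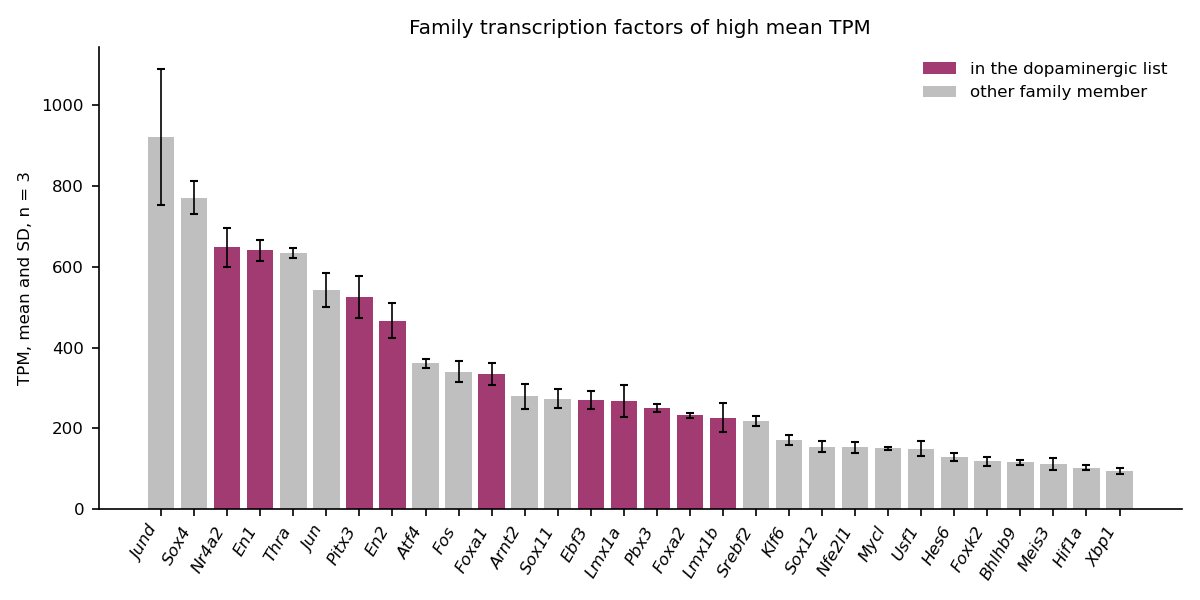
Mean TPM with SD (n = 3 wild-type libraries) of 30 genes of high mean TPM from 11 transcription factor families. Coloured bars are members of the dopaminergic list; Jund, at 920 TPM, and Sox4, at 770 TPM, come before Nr4a2 and En1.

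The share of genes detected, 54.7% over all protein-coding genes, differed between some of the families. The basic helix-loop-helix (55.2%), nuclear receptor (51.1%), Klf and Sp (57.7%) and Ets (53.8%) families lay near that share. The bZIP family (72%) was above it and the forkhead family (40.9%) below. The Sox share was 63.2%, of only 19 genes. Of 195 homeodomain genes, 66 were detected (33.8%), with En1, Pitx3 and En2 first, and 78 had under 3 counts in every library. The Hox genes, which pattern the hindbrain and spinal cord, supplied 38 of those 78: of 39 Hox genes 38 had under 3 counts in every library and the remaining gene was not detected. Over all protein-coding genes 6373 of 21697 had under 3 counts in every library. Of 105 basic helix-loop-helix genes 58 were detected, led by Arnt2 (280 ± 30.7 TPM), Srebf2 (219 ± 12.1 TPM) and Mycl (151 ± 3.81 TPM). The proneural genes Atoh1, Neurog1 and Ptf1a had under 3 counts in every library. Of 19 Sox genes 12 were detected, and Sox4, Sox11 (274 ± 23.6 TPM) and Sox12 (155 ± 13.5 TPM), the SoxC group, stood far above the fourth gene Sox2 (12.3 ± 4.54 TPM). Sox4 alone made up 61.5 ± 1.36% of the TPM of the Sox family. Of 44 forkhead genes 18 were detected, with Foxa1, Foxa2 and Foxk2 (119 ± 11.5 TPM) first. Of 47 nuclear receptors 24 were detected, and after Nr4a2 and Thra the third, Rxrb, was at 84.0 ± 4.95 TPM. All 11 genes of the Ebf, Myt1 and Nfi families were detected. Ebf3 led them at 270 ± 22.8 TPM, followed by Nfix (83.6 ± 17.3 TPM) and the neuronal factor Myt1l (78.0 ± 11.1 TPM). Of 50 bZIP genes 36 were detected, of 26 Klf and Sp genes 15, led by Klf6 (171 ± 11.8 TPM), and of 26 Ets genes 14, led by Elf2 (26.5 ± 2.92 TPM). The Gata, Zic and Gli genes (2 of 17 detected, Glis2 first at 20.1 ± 1.52 TPM) and the T-box genes (1 of 17, Mga at 21.05 ± 5.68 TPM) were the families with the smallest detected shares.

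The bZIP genes overlapped with immediate early genes, which respond within minutes to activity or to the dissociation of tissue. All 16 genes of the immediate early and dissociation list were detected, against 54.7% of all protein-coding genes. Of the 16, 2 were in the top decile (12.5%), near the 10% of all detected genes. Jun was at 495, 451 and 445 CPM and Fos at 218, 239 and 190 CPM. Dusp1 (122.7 ± 14.3 TPM), Btg2 (103 ± 8.83 TPM) and Junb (76.4 ± 23.3 TPM) followed. The libraries agreed within 1.37 times for Jun, Fos, Dusp1 and Btg2, whereas Nr4a1 was at 42.4, 50.4 and 17.6 CPM, lowest in library 3, as was Junb at 60.01, 50.9 and 31.0 CPM. The part of papain dissociation and sorting in these levels was not tested.

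The transmitter genes of other neuron types were present at lower levels. Of the 7 genes of GABA transmission 6 were detected (85.7%, against 54.7% of all protein-coding genes) and none was in the top decile. Slc32a1, the vesicular transporter of GABA and glycine, was at 111, 108 and 109 CPM and 146 ± 7.23 TPM, just under the limit of the top decile. Gad2, a glutamate decarboxylase that makes GABA, was at 89.5, 83.7 and 96.4 CPM and 57.2 ± 6.34 TPM. Gad1, the other glutamate decarboxylase, was far lower, at 5.51, 8.80 and 9.04 CPM and 3.80 ± 0.96 TPM, or 6.36 TPM with the longest transcript as length. Th exceeded Gad2 by 27.3 ± 2.08 times in TPM. The plasma membrane GABA transporter Slc6a11 (28.3 ± 6.41 TPM) and the GABA transaminase Abat (19.0 TPM) were also detected. Of 11 genes of the GABAergic neuron list, transporter and enzymes included, 6 were detected (54.5%, against 54.7% of all protein-coding genes). The highest of its transcription factors were Lhx5 (7.90 ± 2.35 TPM) and Lhx1 (7.31 ± 1.85 TPM), both LIM homeodomain factors. Gata2 had counts in 1 library only, Helt had 0 counts in every library, Gata3 was at 0.342, 0.854 and 2.56 CPM and Tal1 at 3.65, 1.91 and 4.69 CPM.

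Of the 8 genes of glutamate transmission 5 were detected (62.5%, against 54.7% of all protein-coding genes). Slc17a6, the vesicular glutamate transporter VGLUT2 that some DA neurons co-express, was at 162, 206 and 193 CPM and 129 ± 13.5 TPM. Slc17a7 (VGLUT1) had counts in 1 library only, at 0.572 CPM, and Slc17a8 (VGLUT3) was at 2.55, 0.911 and 3.07 CPM. Slc32a1 and Slc17a6 were at similar levels, with a ratio of 1.14 ± 0.16 in TPM. Slc32a1 was the higher in 3 of 3 libraries, by 1.02 times in library 2. Slc1a2, a glutamate uptake transporter usually listed as an astrocyte gene, was at 401, 299 and 429 CPM and 107 ± 23.6 TPM. The neuronal glutamate transporter Slc1a1 was at 21.4 ± 1.08 TPM.

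Acetylcholine and the other monoamines left few transcripts. Chat, the enzyme that makes acetylcholine, had 0 counts in every library, and its high-affinity choline transporter Slc5a7 was at 0.409 ± 0.26 TPM. Ache, which breaks acetylcholine down and is also made by DA neurons, was at 58.6, 49.2 and 53.2 CPM. Of 9 genes for other monoamines and glycine 1 was detected (11.1%, against 54.7% of all protein-coding genes). It was the glycine transporter Slc6a9 (7.18 ± 1.60 TPM). Dbh, which turns DA into noradrenaline, had 0 counts in every library, and Tph2, which makes serotonin in the brain, had 3, 33 and 17 counts.

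Most peptide precursors did not reach 1 TPM in every library, and 1 was in the top decile. Of 58 matched genes 21 were detected (36.2%, against 54.7% of all protein-coding genes) and 15 had under 3 counts in every library, among them Oxt, Tac2, Ucn and Ucn3. Cck, the precursor of cholecystokinin, was at 120, 161 and 110 CPM, 371 ± 59.6 TPM and rank 296. It made up 55.9 ± 2.92% of the TPM of all precursors and exceeded the next, Sst (somatostatin), by 5.38 ± 0.69 times. Sst was at 12.4, 14.6 and 13.0 CPM and 68.7 ± 3.56 TPM, and Adcyap1, the precursor of PACAP, at 30.3, 32.7 and 33.1 CPM and 31.6 ± 1.87 TPM. The libraries of these 2 genes lay close together.

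The next precursors varied between libraries. Penk, the enkephalin precursor, was at 5.63, 17.2 and 8.72 CPM and 23.7 ± 12.5 TPM. Tac1, the precursor of substance P, was at 15.82, 31.8 and 14.7 CPM and 22.5 ± 9.34 TPM. Both were highest in library 2, and for Penk and Tac1 the order with Adcyap1 and with each other changed between libraries. Nts, the neurotensin precursor, was at 1.33, 4.70 and 1.92 CPM. Of the 21 precursors detected 12 had a highest library above 2 times the lowest, where 6.75% of all detected genes did, and library 2 was the highest for 8 of the 12. Wide spread was more frequent among low genes. It was found in 30.1% of all detected genes from 1 to 5 TPM, 9.10% from 5 to 20 TPM and 0.704% from 20 to 100 TPM, and in 6 of 8, 4 of 8 and 2 of 4 precursors of these levels. The precursors are short, with a median of 1318 bases of exon against 4646.5 for all detected genes, and library 2 stood higher for short genes in general. The median log2 ratio of library 2 over the mean of the others was 0.20 for the precursors and 0.20 for all 1155 detected genes from 1000 to 2000 bases, and -0.14 for the 2336 genes of 8000 bases or more. Of the 1155 genes 15.5% had a highest library above 2 times the lowest, beside 12 of the 21 precursors. The part of the difference by length between libraries in the peptide values was not tested.

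Granins and other proteins of the secretory granule were abundant, while the peptide-cutting convertases were lower. All 11 genes of the granin and processing list were detected, against 54.7% of all protein-coding genes. Of the 11, 7 lay in the top decile, against 10% of all detected genes. Scg2 (secretogranin II) was at 1356, 1259 and 1361 CPM, 1968 ± 166 TPM and rank 25, above Th. Cpe, the carboxypeptidase that trims peptide ends, was at 1039, 1110 and 984 CPM and 1490 ± 30.9 TPM. Pcsk1n (737 ± 135 TPM), Scg5 (445 ± 52.6 TPM) and Chgb (432 ± 41.4 TPM) followed. The convertase Pcsk2 was at 89.5 ± 4.33 TPM and Pcsk1 at 3.16, 4.04 and 1.83 CPM and 1.98 ± 0.66 TPM.

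**Figure D3:**
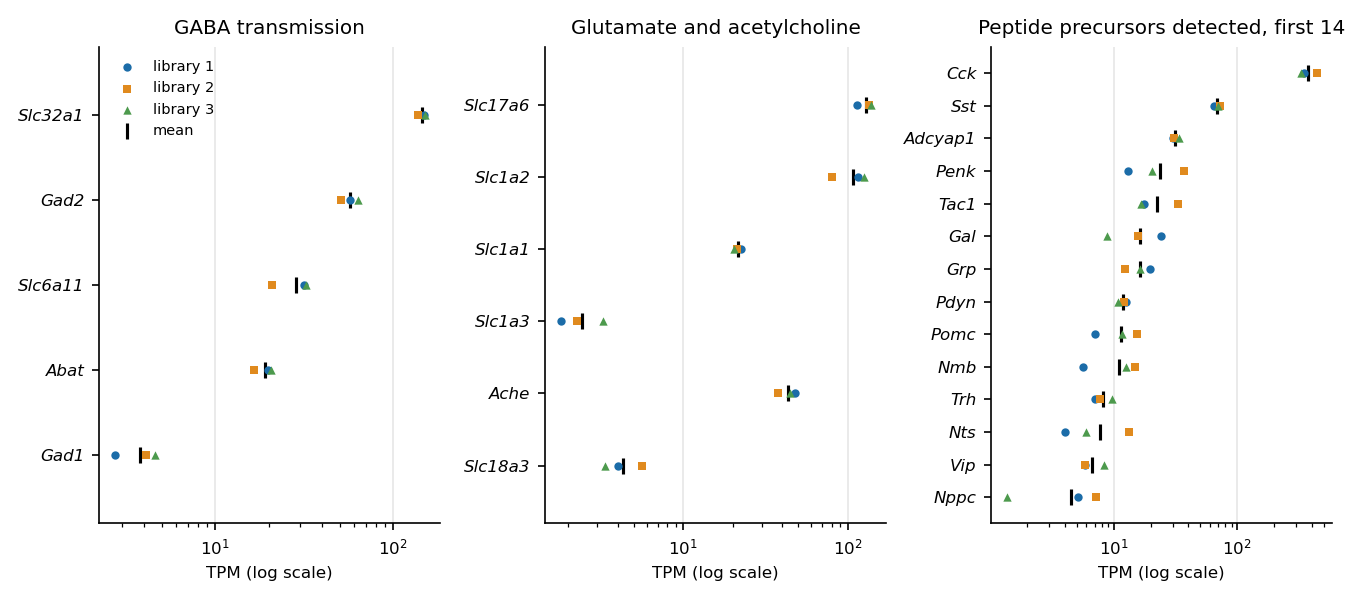
Level in TPM on a log scale of detected genes of GABA transmission (left), of glutamate and acetylcholine transmission (middle) and of the first 14 detected peptide precursors (right), with a symbol for each of the 3 wild-type libraries and a bar at the mean. Slc32a1 and Slc17a6 lie above 100 TPM and Gad1 under 10 TPM; Cck stands apart at 371 TPM, and Penk and Tac1 are highest in library 2.

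Among 215 ion channel genes 126 were detected and 5 were in the top decile. The shares over all protein-coding genes were 54.7% detected and 10% of those in the top decile. The highest was Scn3b, the beta-3 auxiliary subunit of sodium channels, at 760, 699 and 738 CPM, 500 ± 39.9 TPM and rank 191. It made up 70.0 ± 0.98% of the TPM of the sodium channel list. The pore-forming subunits were much lower, with Scn3a, the embryonic form, at 296, 245 and 300 CPM and 84.1 ± 12.5 TPM, Scn2a at 32.1 ± 4.46 TPM and Scn9a at 22.7 ± 5.57 TPM. Nalcn, the sodium leak channel behind pacemaking, was at 22.7 ± 4.25 TPM. Auxiliary subunits also headed the calcium channels, 22 of whose 25 genes were detected. Cacng4 was at 324, 323 and 350 CPM and 347 ± 28.4 TPM, Cacnb3 at 278 ± 21.3 TPM, Cacng7 at 149 ± 1.88 TPM and Cacnb1 at 127 ± 5.87 TPM. Cacna1b, the pore of N-type channels, was at 215, 162 and 261 CPM and 80.2 ± 21.7 TPM. It was lowest in library 2, as were 66 of the 126 channel genes detected (52.4%, against 38.4% of all detected genes). The channel genes had a median of 5485.5 bases of exon, against 4646.5 for all detected genes, and the part of length in the low values of library 2 was not tested.

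Of 40 voltage-gated potassium channel genes 30 were detected (75%, against 54.7% of all protein-coding genes), 22 of the 30 under 20 TPM and none in the top decile. Kcnd3, an A-type channel of DA neurons, was at 317, 251 and 317 CPM and 115 ± 19.3 TPM. Kcnh4 was at 60.8 ± 6.06 TPM, Kcna6 at 53.9 ± 7.84 TPM and Kcnh2 at 35.1 ± 4.40 TPM. Of 15 inward rectifiers 8 were detected (53.3%), all under 20 TPM. Kcnj6, the GIRK2 subunit through which D2 autoreceptors act in adult DA neurons, was first at 25.7, 22.2 and 20.1 CPM and 11.1 ± 1.42 TPM, or 18.4 TPM with the longest transcript as length. Kcnmb4, an auxiliary subunit of BK channels, led the calcium- and sodium-activated channels (9 of 12 detected) at 51.8 ± 2.75 TPM, with Kcnn3 (SK3) at 16.5 ± 2.72 TPM. Kcnk2 (36.2 ± 1.93 TPM) and Kcnk9 (34.2 ± 7.84 TPM) led the 6 of 14 two-pore channels detected (42.9%).

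Of the HCN and cyclic nucleotide-gated channels 3 of 10 were detected (30%, against 54.7% of all protein-coding genes). They were Hcn3 at 94.6 ± 6.89 TPM, Hcn2 at 35.2 ± 1.41 TPM and Hcn4 at 30.1 ± 3.83 TPM. The TPM ranges of Hcn2 and Hcn4 overlapped, and Hcn3 was above both in 3 of 3 libraries. Of 28 TRP channels 14 were detected (50%). Mcoln1 (36.4 ± 3.23 TPM), Trpv1, the capsaicin receptor (35.8 ± 1.60 TPM), and Trpv2 (34.3 ± 3.08 TPM) stood within their spread of each other. With the longest transcript as length, however, Mcoln1 reached 75.2 TPM. Trpv1 was at 35.8, 35.2 and 35.0 CPM. Of 23 chloride channels and anoctamins 12 were detected (52.2%), with Clcn4 at 132 ± 8.01 TPM first. Tmem63b, a mechanosensitive channel (155 ± 22.8 TPM), and Asic1, an acid-sensing channel (95.8 ± 1.77 TPM), led a list of 10 with 5 detected (50%). Panx1 (145 ± 14.1 TPM) and the neuronal connexin Gjd2 (62.5 ± 3.50 TPM) led the gap junction list, 7 of 23 detected (30.4%).

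Of 346 receptor genes 182 were detected and 9 were in the top decile. The shares over all protein-coding genes were 54.7% detected and 10% of those in the top decile. The highest was Chrna6, the alpha-6 nicotinic subunit that marks catecholamine neurons, at 490, 406 and 474 CPM, 588 ± 79.2 TPM and rank 151. It exceeded Chrna4 (167 ± 24.1 TPM) by 3.52 ± 0.06 times in 3 of 3 libraries. Chrnb2 was at 97.8 ± 7.23 TPM and Chrnb3, the usual partner of alpha-6, at 99.7, 58.1 and 100.5 CPM and 50.8 ± 15.96 TPM, lowest in library 2. The remaining nicotinic subunits were lower. Of the 16 nicotinic genes 7 were detected (43.8%, against 54.7% of all protein-coding genes).

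Among glutamate receptors 16 of 18 ionotropic subunits were detected (88.9%, against 54.7% of all protein-coding genes). Grik5, a kainate subunit, was at 280, 272 and 280 CPM and 200 ± 11.6 TPM, followed by Grik3 (85.7 ± 18.3 TPM), the AMPA subunits Gria2 (80.0 ± 10.2 TPM), Gria4 (60.5 ± 7.04 TPM) and Gria3 (53.7 ± 9.55 TPM). The GABA-A list had 13 of 19 subunits detected (68.4%), and Gabra3, the most abundant alpha subunit, was at 138 ± 7.42 TPM. Glra2, the fetal alpha subunit of glycine receptors, was at 63.9 ± 6.37 TPM and Glra1, the adult form, at 0.418, 1.42 and 0.114 CPM. Gabbr1, a subunit of GABA-B receptors, was at 716, 724 and 748 CPM and 351 ± 20.3 TPM, and its obligate partner Gabbr2 at 107, 81.1 and 113 CPM and 56.3 ± 11.7 TPM.

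Of the 5 DA receptors only Drd2 was detected. It was at 54.5, 57.5 and 49.5 CPM and 78.7 ± 3.19 TPM, and made up 97.0 ± 0.95% of the TPM of the list. Drd1 was at 1.90, 0.683 and 0.962 CPM and Drd3 had 0 counts in every library. Among the receptors of other monoamines and acetylcholine Chrm5, the muscarinic receptor of DA neurons, was at 50.9 ± 11.0 TPM and Adra1b, an adrenergic receptor, at 38.4 ± 2.76 TPM, and Htr7 was the first of the serotonin receptors at 10.1 ± 1.25 TPM. Of 82 peptide receptors 36 were detected (43.9%, against 54.7% of all protein-coding genes). Oprl1, the nociceptin receptor, was at 161, 180 and 175 CPM and 171 ± 8.74 TPM, Adcyap1r1, the PACAP receptor, at 152 ± 20.3 TPM, Mchr1 at 42.1 ± 4.19 TPM and Ntsr1, the neurotensin receptor of DA neurons, at 25.8 ± 7.87 TPM. Both Adcyap1 and its receptor were thus present in the same libraries. Cnr1, the cannabinoid receptor, was at 55.4 ± 4.89 TPM and Adora1, an adenosine receptor, at 50.7 ± 9.21 TPM. The adhesion receptors Adgrl1 (290 ± 29.0 TPM) and Adgrg1 (201 ± 22.2 TPM) and the orphan Gpr162 (166 ± 9.64 TPM) were in the top decile.

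**Figure D4:**
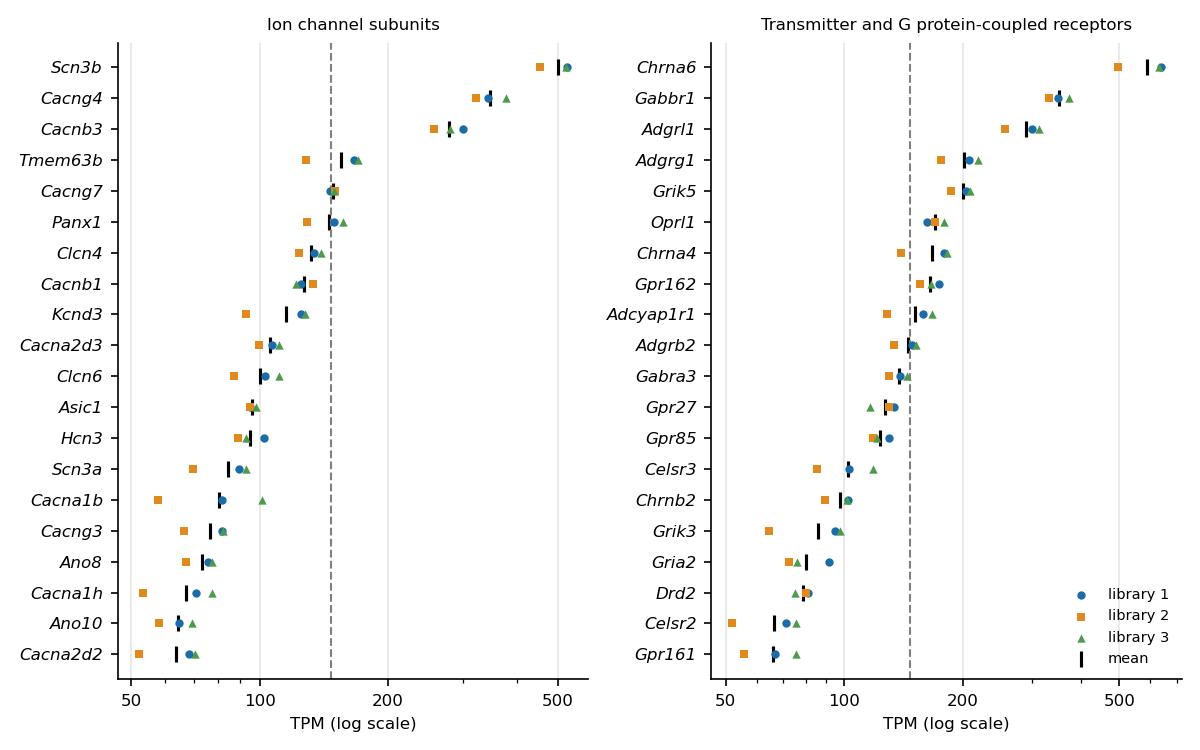
Level in TPM on a log scale of 20 channel genes (left) and 20 receptor genes (right) of high mean TPM, with a symbol for each of the 3 wild-type libraries and a bar at the mean. The dashed line is the start of the top decile (147 TPM); Scn3b and Chrna6 lead, and library 2 is the lowest for most channel genes shown.

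Of 43 receptor tyrosine kinases and GDNF co-receptors 25 were detected (58.1%, against 54.7% of all protein-coding genes) and 2 were in the top decile. Gfra1, the co-receptor that binds GDNF, was at 485, 442 and 438 CPM and 310 ± 24.0 TPM, and Ret, the kinase it works with, at 537, 512 and 588 CPM and 301 ± 33.4 TPM. These were the genes in the top decile, and their TPM ranges overlapped. Ntrk2, the BDNF receptor TrkB, was at 37.0 ± 5.56 TPM. Of 105 growth factor ligands 49 were detected (46.7%, against 54.7% of all protein-coding genes). Of the 49, 2 were in the top decile (4.08%, against 10% of all detected genes). Dlk1, a Notch-like ligand that DA neurons express, was first at 974, 990 and 945 CPM and 639 ± 14.95 TPM, then the intracellular factor Fgf13 (304 ± 36.0 TPM), Ptn (126 ± 11.7 TPM) and Wnt5a (107 ± 14 TPM). Of 37 axon guidance receptors 31 were detected (83.8%), led by Plxna1 (207 ± 36.1 TPM), Neo1 (159 ± 21.5 TPM) and Plxna3 (152 ± 25.9 TPM).

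Markers of DA neuron subsets were detected for 17 of 18 genes (94.4%, against 54.7% of all protein-coding genes). After Aldh1a1 and Cck came Calb2 (calretinin) at 81.9, 101 and 77.1 CPM and 185 ± 18.5 TPM, Lmo3 at 214, 191 and 202 CPM and 147 ± 13.3 TPM, and Slc17a6. Calb1 (calbindin) was at 31.9 ± 2.56 TPM and Anxa1 was the gene that was not detected. In bulk samples, fewer cells of a subset and less RNA per cell cannot be told apart.

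All 12 general neuronal genes were detected, against 54.7% of all protein-coding genes. Of the 12, 9 lay in the top decile, against 10% of all detected genes. Tubb3, the neuronal beta-tubulin, was at 2914, 3218 and 2830 CPM, Gap43, a growth cone protein, at 1612, 1615 and 1518 CPM, and Stmn2, a regulator of growing microtubules, at 2254, 2516 and 2220 CPM. The 10 protein-coding genes of highest TPM were mt-Cytb, mt-Co1, Tuba1a, Nnat, mt-Nd1, Tubb3, Tubb5, Tubb2b, Gap43 and mt-Nd2, from 9438 down to 3496 TPM. They were 4 genes of the mitochondrial chromosome, 4 tubulins, Gap43 and the imprinted gene Nnat. Of the mitochondrial-coded respiratory genes, the study names ND1, ND2, ND4, ND5, ND6, mtCyb and Cox1 as passing its pipeline. The counts of the others were not examined here, so the places of mitochondrial genes and their share of counts may be incomplete. Tubulin genes have near-identical copies, so the split of reads among Tuba1a, Tubb5 and Tubb2b is uncertain.

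Genes listed as markers of cells that are not neurons were present at a low level. The part of the sorted neurons themselves in these levels was not tested. Over 11 marker lists with 95 genes, 41.1% were detected, against 54.7% of all protein-coding genes. The summed level was 712, 672 and 846 TPM, beside 4074, 3470 and 3754 TPM for the 5 DA markers. The microglia list had the highest summed TPM of the 11 in every library. In CPM, which is not corrected for length, the astrocyte list was higher, at 408, 310 and 444 CPM against 172, 133 and 172 CPM, through Slc1a2. Of 12 genes of the microglia and macrophage list 11 were detected, with sums of 305, 233 and 294 TPM. C1qb and C1qa, subunits of complement C1q, were at 28.3, 24.3 and 20.8 CPM and at 15.5, 15.97 and 17.9 CPM, Fcrls at 26.3, 18.3 and 25.05 CPM, and Csf1r, the receptor on which microglia depend, at 35.1, 28.3 and 40.1 CPM. All 3 libraries held these genes. Th exceeded C1qb by 18.7 ± 2.37 times in TPM. Ptprc was the member that was not detected.

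Of 12 genes of radial glia and progenitors 9 were detected (75%, against 54.7% of all protein-coding genes), with sums of 151, 198 and 235 TPM. Fabp7, a lipid-binding protein of radial glia, was at 19.4, 29.4 and 40.2 CPM and 88.8 TPM on average, lowest in library 1 and highest in library 3. Shh, the floor plate signal, was at 36.8, 45.0 and 36.6 CPM, and Hes5, Sox2 and Nes were at 15.68 ± 5.09, 12.3 ± 4.54 and 10.9 ± 3.05 TPM. Of 10 genes of dividing cells 2 were detected (20%). They were Top2a at 1.60 ± 0.39 TPM and Ccna2 at 2.56 ± 0.91 TPM. Mki67 was at 2.74, 3.13 and 2.43 CPM. The astrocyte list came to 121, 90.1 and 139 TPM, of which Slc1a2 made up 91.9 ± 2.87%. Gfap and S100b had 0 counts in every library, Aqp4 had 7, 0 and 14 counts and Aldh1l1 was at 5.55 ± 2.42 TPM. The oligodendrocyte list had 5 of 8 genes detected, with Mbp (13.9 ± 2.23 TPM) first.

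Red blood cell genes were detected for 4 of 9 members (44.4%), the adult globins. Hbb-bs was at 5.67, 6.63 and 6.55 CPM and 30.5 ± 2.53 TPM, followed by Hba-a2, Hba-a1 and Hbb-bt. Hba-a1 and Hba-a2 are near-identical, so reads may be split between them. The embryonic globins Hba-x and Hbb-bh1 had 0 counts in every library, and Hbb-y had 0, 73 and 0 counts. None of 8 endothelial genes and none of 6 fibroblast genes was detected in all libraries. Tek and Ly6c1 had 0 counts, Cldn5 had 4, 35 and 101 counts, and Col1a1 and Col1a2 had at most 62 counts. The pericyte list had 2 of 7 detected, Vtn and Rgs5. The lens list had 2 of 8 (25%, against 54.7% of all protein-coding genes), Crybb1 (6.17 ± 1.89 TPM) and Bfsp1. Of the other lens genes Cryba1, Crygs, Mip and Lim2 had 0 counts in every library, and Cryaa and Cryba2 were not detected. Pitx3 is also active in lens and skeletal muscle. Myf5, Myod1 and Myog had 0 counts in every library and Acta1 was the 1 muscle gene of 8 that was detected, at 3.43 ± 1.15 TPM.

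Of the other neuron types, the GABAergic and glutamatergic lists had summed levels above 100 TPM in every library and the serotonergic, noradrenergic and cholinergic lists under 20 TPM. The serotonergic list had 1 of 5 detected, Htr1a, a receptor that is not confined to serotonergic cells, and Fev had 0 counts in every library. The noradrenergic list had 0 of 5 detected, and Dbh and Phox2a had 0 counts. The cholinergic and motor list had 2 of 6, Slc18a3 (4.33 ± 1.17 TPM) and Isl1 (2.05 TPM), with Chat and Mnx1 at 0 counts. The glutamatergic list had 6 of 10 (60%), and Slc17a6 made up 81.1 ± 1.35% of its TPM, followed by the transcription factors Lhx9 (7.14 ± 2.96 TPM) and Nkx6-1 (6.28 ± 1.42 TPM). The part of a few cells of other types and of free RNA in these levels was not tested.

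**Figure D5:**
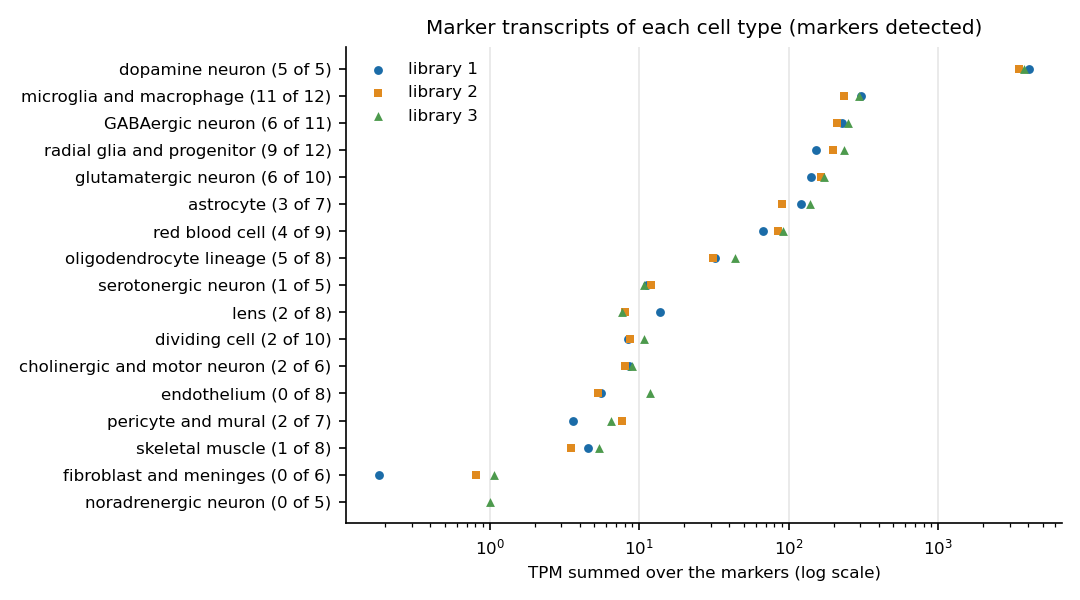
Summed TPM on a log scale of the markers of 17 cell types, with a symbol for each of the 3 wild-type libraries and, in parentheses, the markers detected of those listed; sums under 0.1 TPM are not drawn. The DA neuron list stands at 3470 to 4074 TPM and the microglia list, the next, at 233 to 305 TPM.

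Differences between the libraries were mostly among low genes. The common biological coefficient of variation of the 3 libraries was 21.5% over 14886 genes. Of the 11860 detected genes 800 had a highest library above 2 times the lowest (6.75%), and of the 1882 genes at 100 TPM or more 2 did, Scand1 (47.9, 95.3 and 39.9 CPM) and Rpl26 (40.7, 60.9 and 22.6 CPM). The widest ratios were those of Ripply2 (2.55, 0.285 and 0.962 CPM), Fgf20 (2.89, 4.47 and 0.504 CPM), Hist1h4i (1.56, 1.96 and 0.229 CPM), Tcf7l2 (5.74, 10.9 and 43.3 CPM) and G0s2 (1.83, 0.398 and 3.00 CPM). Of these Tcf7l2, a Wnt effector abundant in thalamus and dorsal midbrain, had the most counts, and it was highest in library 3. Zic1, a dorsal midline factor, was also highest there at 1.03, 4.21 and 16.9 CPM, as was Gata3. Pitx1, a relative of Pitx3, had the widest ratio among detected genes at 20 TPM or more, at 50.7, 94.0 and 22.99 CPM. Zic1, Pitx1, Scand1 and Rpl26 were picked out after their values were seen. Differences in dissection, in the embryos pooled and in library preparation cannot be told apart here.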

How the data were processed

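RNA-seq libraries of sorted DA neurons from 3 wild-type pools of embryos were analysed, with the group and number of each library as its title gives them. For each library the authors deposited raw read counts of 47729 Ensembl genes, without normalisation. Per the study's methods RNA was made into libraries with a directional kit, sequenced on a NextSeq 500 and mapped to GRCm38.p4, and the submitters' processing notes name bcl2fastq 2.17, Trimmomatic 0.30 and DESeq2 1.10.1. The aligner, the counting program and its strand setting are not given in the sources used here, so values of overlapping genes and of near-identical copies are uncertain. Tables of the authors' genotype comparisons (mean signal, log2 fold changes and p-values) were not used.

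Of the gene identifiers 47310 (99.1%) were found in GENCODE M21 (GRCm38), which gave symbols, coordinates and lengths of merged exons. CPM used the library totals and TPM the merged exon lengths, with Python 3.11.15 and pandas 2.3.3. The biological coefficient of variation was estimated with edgeR 4.0.16 under R 4.3.3 (TMM, filterByExpr, intercept only). The calculation was tested on simulated libraries of known levels. Promoter sequences were RefSeq's for GRCm38.p6. The members and the 67 gene lists were chosen with earlier results of these data known. Named were the 5 markers, the dopaminergic transcription factors, the DA synthesis genes, Dot1l, the 10 coding genes of highest TPM, up to 5 first members of each list, members under 3 counts in every library, and the 5 genes of widest ratio; genes named beyond these were picked to place a named gene or after their values were seen. Kiss1, of the peptide list, found no match. Some genes of the lists count in the totals but are not reported here. Nothing says whether the pools of 1 group were prepared on separate days, so the SD may be in part technical. The libraries' counts differed by a chi-square of 17.7 to 42.7 per gene, and they were kept as 3 separate samples.

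Alternatives were TMM factors, the longest transcript as length, totals without the mitochondrial chromosome, omission of each library in turn, other detection minimums and, for the spread, genes at 5 TPM or more.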

Additional observations from a re-analysis of the deposited data

How the results depend on the processing

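The 11860 genes detected numbered between 9880 and 12848 under the other minimums (0.5 TPM, 5 TPM and 10 counts), and between 11860 and 12186 under the other scalings, lengths and without each library. The 11 dopaminergic transcription factors in the top decile were 11 under each of these scalings, lengths and without each library. The rank of Th was 32, and 26 with the mitochondrial chromosome genes left out, by construction since such genes stood above it. The count of 800 genes with a highest library above 2 times the lowest was between 309 and 490 without each library in turn (309 without library 2), in part by construction since 2 libraries span less than 3, and 162 among genes at 5 TPM or more. The biological coefficient of variation was 17.9% without library 2 and 24.96% without library 1. The summed markers of cells that are not neurons, 743 TPM on average, lay between 686 and 779 TPM under every alternative run. Of 258 levels of named genes, 23 moved by over 1.5 times with the longest transcript as length, among them Ddc (1613 TPM), Aldh1a1 (1398 TPM) and Pbx3 (423 TPM), and 1 without library 2 and 1 without library 3. By at least the SD, the longest transcript as length moved 144 of the 258 levels. Leaving out the mitochondrial chromosome genes moved 18 by as much. TMM scaling and omission of each library moved none by as much as the SD. No paired analysis was possible because the libraries are of 1 group. Depth limits the low genes: 3 counts were worth up to 0.114 CPM.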

Other observations

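Library 2 stood apart from the others by transcript length, a split examined after the data were seen. The median log2 ratio of library 2 over the mean of the other libraries was 0.23 for the 196 detected genes under 1000 bases of exon, 0.082 for the 3471 genes from 2000 to 4000 bases and -0.14 for the 2336 genes of 8000 bases or more. For library 3 the same medians were -0.21, -0.067 and 0.10. Of the genes under 1000 bases 21.9% had a highest library above 2 times the lowest, and of those of 8000 bases or more 2.53%. The dopaminergic transcription factors, with a median of 4550.5 bases against 4646.5 for all detected genes, were lowest in library 2 for 10 of 16 genes (62.5%, against 38.4% of all detected genes).

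Among long noncoding RNAs Gm42418 had the highest mean level, 7978 ± 2217 TPM, and was highest in library 2. The imprinted transcripts Meg3 and Rian of chromosome 12 were at 607 ± 130 and 156 ± 10.8 TPM. C130021I20Rik, at 579 TPM, was among those between them. Meg3 was at 3447, 2369 and 2986 CPM and Rian at 803, 743 and 743 CPM. Dlk1, a coding gene of the same imprinted domain, was at 974, 990 and 945 CPM in these libraries. Malat1, a nuclear RNA of most cells, was at 590, 559 and 468 CPM and Miat at 719, 460 and 727 CPM.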
